A study of Mus musculus with 20 samples.

Results

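Loss of the repressor Gfi1 was compared with intact Gfi1 in thymocytes of untreated C57BL/6 mice. The comparison rests on 4 of the 20 arrays of the series, the 2 labelled Gfi1KO thymocytes (KO untreated 1 and 2) and the 2 labelled WT thymocytes (WT untreated 1 and 2), chosen by their titles. A further 6 arrays of irradiated thymocytes, 3 WT and 3 KO, entered the fit and served for 1 comparison. The other 10 arrays are tumours induced with the mutagen ENU, some in Notch transgenic mice, and do not enter the results unless named. For the tumour mice the labels give a floxed Gfi1 gene removed by Mx1Cre. For the thymocyte mice they give only the genotype, so that the KO allele, the promoter of any Cre, the age and sex of the mice, the number of mice behind an array, and the dose and time of irradiation are unknown here. Nothing states that arrays of a group come from separate mice, and the p-values may then measure only technical spread.

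GFI1 is a zinc finger protein that binds DNA and silences genes through its N-terminal SNAG domain, which brings in the histone demethylase LSD1 and histone deacetylases. In the bone marrow it is needed for neutrophils, where it holds down genes of the monocyte lineage. In the thymus it is most active in immature cells, which pass from the double-negative stage without CD4 and CD8, through the double-positive stage with both, to single-positive cells that leave for the periphery.

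The arrays carry 182058 probe sets, of which 167016 name 1 gene. They name 19607 genes, and the 12747 genes that were not dim throughout the thymocyte arrays were tested. Values are on a log scale whose base was read as 2 from their range, so that a difference of 1 is 2-fold, and a difference is written with its standard error (SE). Correlation over probe sets was 0.986 between the WT arrays, 0.988 between the KO arrays and 0.971 to 0.972 between a WT and a KO array. Genes that define thymocytes were bright on all 4 arrays and did not pass the test. Cd3e, a chain of the T cell receptor complex, lay between 13.83 and 13.90 (difference -0.03, limma adjusted p = 0.912), and the recombinase gene Rag1 between 14.35 and 14.48 (0.02, limma adjusted p = 0.944). The coreceptors Cd4 (-0.16) and Cd8a (-0.02) did not pass the test either.

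DNA upstream of 2 of the genes that rose most is printed here because GFI1 is known to bind sequences with the core AATCAC, so that these letters can be looked for directly. Both stretches are the 250 bases before a RefSeq start on assembly GRCm38.p6, written 5′ to 3′ on the strand of the gene in lower case, and capitals mark AATCAC or its reverse complement GTGATT. The first belongs to Sertad4, a protein of the SERTA domain family, at chr1:192855753-192856002 on the minus strand. The second belongs to Il18r1, a chain of the interleukin 18 receptor, at chr1:40465302-40465551 on the plus strand.
Sertad4: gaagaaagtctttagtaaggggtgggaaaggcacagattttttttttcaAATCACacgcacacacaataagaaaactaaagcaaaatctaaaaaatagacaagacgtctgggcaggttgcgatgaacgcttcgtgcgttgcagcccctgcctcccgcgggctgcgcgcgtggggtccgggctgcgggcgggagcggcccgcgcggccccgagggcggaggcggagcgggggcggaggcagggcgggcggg
Il18r1: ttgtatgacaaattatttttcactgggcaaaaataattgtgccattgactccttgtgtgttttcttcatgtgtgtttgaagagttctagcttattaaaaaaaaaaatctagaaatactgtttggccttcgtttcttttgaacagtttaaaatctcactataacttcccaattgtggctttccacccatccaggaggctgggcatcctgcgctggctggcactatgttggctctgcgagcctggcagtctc
Of the 10 genes that rose most, 6 matched an entry of the promoter table (Il18r1, Cd163l1, Msh4, Sertad4, Epha2 and Cdc14b), and Sertad4 was the one with the letters, 1 match 201 bases before the start. Among all 32851 entries of the table, 9.14% held the motif. It stood before 9.49% of the 664 genes higher in KO with an entry, 7.27% of the 550 lower genes and 9.03% of the 8872 genes that were not called. Among genes changed by over 2-fold it stood before 12 of 138 higher genes (8.7%) and 5 of 33 lower genes (15.2%). Higher genes thus held these letters about as often as genes that were not called. A match is not a binding site, and the window is short.

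Gfi1 itself was read by 8 probe sets, numbered here by the order of their IDs, and they did not move together. Probe set 2 read 12.07 and 11.83 on the WT arrays and 5.62 and 5.67 on the KO arrays, a difference of -6.31 ± 0.15 (limma adjusted p = 1.53e-08 over 121590 probe sets tested). On probe set 3 the WT arrays read 11.36 and 11.41 and the KO arrays 8.60 and 8.50 (-2.84 ± 0.13, limma adjusted p = 6.95e-07). On probe set 4 the WT arrays read 11.28 and 11.11 and the KO arrays 9.05 and 8.85 (-2.24 ± 0.21, limma adjusted p = 1.07e-04). Both KO arrays were thus far below both WT arrays on these probe sets. Probe sets 1, 5 and 7 went the other way, with differences of 1.07 ± 0.15, 1.07 ± 0.15 and 1.20 ± 0.18 (limma adjusted p = 0.00219, 0.00154 and 0.00268). Probe sets 6 (-0.01) and 8 (0.88, limma adjusted p = 0.102) did not pass. The median over the 8 probe sets, used as the level of the gene, did not pass (0.26 ± 0.15, limma adjusted p = 0.333), so Gfi1 has to be read by probe set. Which stretch of the gene each probe set reads was not analysed here, and a probe set outside a deleted stretch checks nothing. Over all probe sets tested, 4.51% passed. The plot of the 8 probe sets by array shows both directions.

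**Figure D1:**
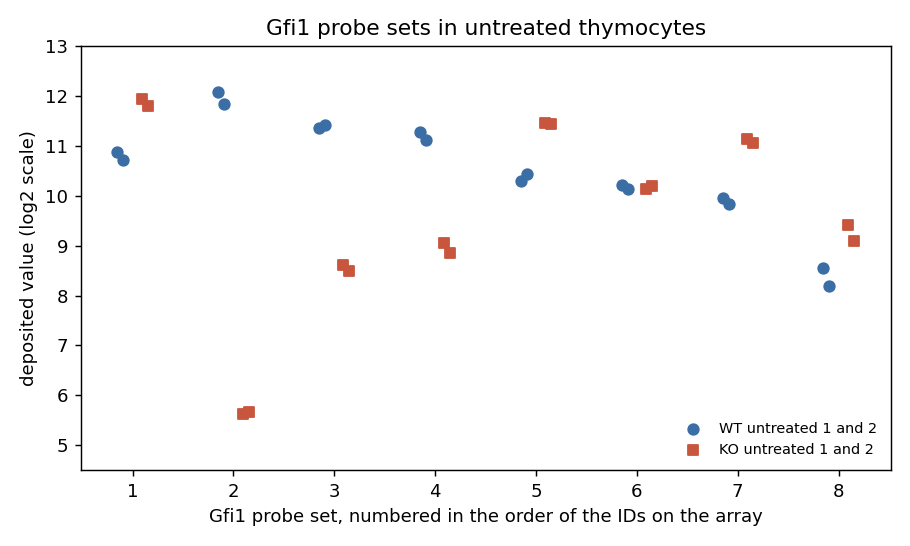
Deposited log2 values (y axis) of the 8 Gfi1 probe sets (x axis) on the 2 WT (circles) and 2 KO (squares) untreated arrays, each point 1 array. Probe sets 2, 3 and 4 were lower on both KO arrays, with probe set 2 at 5.62 and 5.67, and probe sets 1, 5 and 7 were higher.

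Across the genome, 1566 of the 12747 genes tested passed at a limma adjusted p under 0.05, which is 12.3%. Of these, 866 were higher in KO (6.79%) and 700 lower (5.49%). More genes rose than fell by over 2-fold, 177 higher (1.39%) against 44 lower (0.345%). The 177 had a median WT level of 8.25, against 9.39 for all genes tested, and reached 9.85 in KO. The 44 had a median WT level of 9.63 and fell to 7.995. The larger rises thus mostly started below the median level, as the plot of level and difference shows. Each gene called had both KO arrays on one side of both WT arrays, as 61.9% of all genes tested did. Among the genes changed by over 2-fold that have at least 4 probe sets, all probe sets took the sign of the gene in 131 of 155 higher and 30 of 39 lower genes. The count depends on each array. It was 859 and 845 when WT untreated 1 or 2 was left out, and 716 and 780 when KO untreated 1 or 2 was. With the tumours added to the fit it was 115 (78 higher and 37 lower), and with only the 4 untreated arrays it was 3203 (1536 and 1667).

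**Figure D2:**
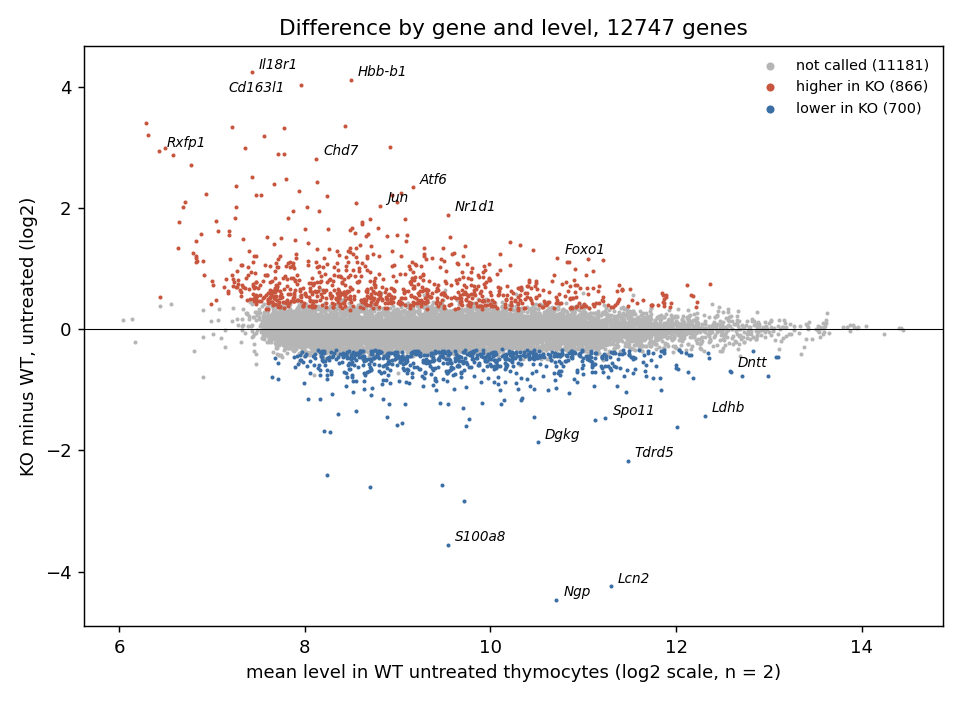
Difference between KO and WT (y axis, log2) against the mean WT level (x axis, log2 scale) for 12747 genes, each point 1 gene, red where called higher and blue where called lower in KO. Rises past 2 on the log2 scale sit below a WT level of 10, while Tdrd5, Ldhb, Spo11 and the neutrophil genes Ngp and Lcn2 fell from higher levels.

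The same genes were compared in irradiated thymocytes, which share no array with the untreated comparison, though 1 model gave both the spread. There 1903 genes were called (14.9%), 8.12% of all genes tested higher and 6.81% lower in KO. Of the 177 genes higher by over 2-fold, 167 were also called higher in irradiated KO thymocytes and 175 had the same sign, as 63.8% of all genes tested did. Of the 44 lower genes, 32 were called lower there and 44 had the same sign. A gene was counted as switched on if both WT arrays lay below the 40th percentile of their array (7.85 to 7.91) and both KO arrays above it, and 163 of the genes called higher did so, 58 of them by over 2-fold. As many as 104 of the 163 were called higher in irradiated KO thymocytes too. In the other direction 78 genes were switched off, 21 by over 2-fold, and 44 of the 78 were called lower after irradiation. These genes passed the filter through 1 genotype, which fixes their direction.

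Among the large rises were single genes for receptors and adhesion proteins, which are described here one by one and were not tested as a group. Rxfp1, the receptor for the hormone relaxin, read 6.45 and 6.41 in WT and 9.18 and 9.57 in KO (2.95 ± 0.20, limma adjusted p = 1.53e-08). Amica1, an adhesion molecule of leukocytes that binds epithelial cells, read 7.74 and 7.67 in WT and 10.58 and 10.64 in KO (2.91 ± 0.16, limma adjusted p = 1.38e-09). Gfra1, the coreceptor through which the nerve growth factor GDNF signals, read 9.10 and 8.89 in WT and 11.09 and 11.11 in KO (2.10 ± 0.12, limma adjusted p = 1.16e-09). Rxfp1 and Amica1 thus rose from levels under the limit for dim genes, and Gfra1 from a level well above it. Sdc1 and Sdc4 are syndecans, which carry heparan sulphate chains that hold growth factors. They were picked from the largest rises, and the other members of that family are not described here. Sdc1 read 7.73 and 7.59 in WT and 9.99 and 10.14 in KO (2.40 ± 0.13, limma adjusted p = 5.82e-10). Sdc4 was present in WT at 9.02 and 9.07 and read 11.31 and 11.27 in KO (2.25 ± 0.12, limma adjusted p = 5.16e-10). Rgmb, a coreceptor for bone morphogenetic proteins, read 7.86 and 8.01 in WT and 10.18 and 10.28 in KO (2.29 ± 0.11, limma adjusted p = 2.39e-10). Gpr183, a receptor for oxysterols that guides lymphocytes within lymphoid organs, rose from 9.04 and 9.13 to 10.94 and 10.87 (1.83 ± 0.10, limma adjusted p = 1.37e-09). For all of these genes the gap between genotypes was far wider than the gap between arrays of a genotype. They were taken from the largest rises called without overlap of the groups, so this wide gap came with the choice. With all 20 arrays in the fit, Rxfp1 and Gfra1 were no longer called (limma adjusted p = 0.28 and 0.314), while Amica1, Sdc1, Sdc4, Rgmb and Gpr183 were.

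Some of the genes that rose most encode regulators of transcription, splicing or chromatin. They were taken from the largest changes and are not a tested group, and of 37 ZBTB factors 1 was higher and 1 lower. Zbtb10, a zinc finger protein with a BTB domain, rose from 6.45 and 6.18 to 9.48 and 9.58 (3.21 ± 0.17, limma adjusted p = 5.62e-10). Chd7, a chromatin remodeller of the chromodomain helicase family, rose from 8.10 and 8.14 to 10.86 and 11.02 (2.82 ± 0.12, limma adjusted p = 3.85e-11), and all of its 41 probe sets had this sign. Atf6, a membrane-bound factor that is cut free and enters the nucleus under stress of the endoplasmic reticulum, rose from 9.15 and 9.17 to 11.46 and 11.56 (2.35 ± 0.11, limma adjusted p = 1.17e-10). All 3 thus reached levels in KO that no WT array came near. Grhl3, a factor of epidermal differentiation, rose from 7.41 and 7.64 to 9.78 and 9.70 (2.21 ± 0.11, limma adjusted p = 2.76e-10). Esrp1, a splicing factor of epithelial cells, rose from 6.67 and 6.75 to 8.77 and 8.85 (2.10 ± 0.11, limma adjusted p = 5.84e-10). Its paralogue Esrp2 was already present in WT and fell, from 9.52 and 9.30 to 8.53 and 8.60 (-0.85 ± 0.14, limma adjusted p = 5.9e-04). Nr1d1, the circadian repressor REV-ERB alpha, rose from 9.60 and 9.48 to 11.44 and 11.43 (1.89 ± 0.12, limma adjusted p = 3.85e-09). Its paralogue Nr1d2 rose less, from 9.42 and 9.37 to 10.07 and 10.22 (0.75 ± 0.14, limma adjusted p = 0.00167). Among genes switched on were Eya1, a cofactor and phosphatase of organ development (1.79 ± 0.12, limma adjusted p = 8.37e-09), and Lhx9, a homeodomain factor of gonad development (1.58 ± 0.13, limma adjusted p = 3.38e-07). Esrp2 and Nr1d2 were no longer called with all 20 arrays in the fit (limma adjusted p = 0.721 and 0.575).

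Further large rises, again single genes and not a tested group, included the following signalling proteins and enzymes. Map3k5, a kinase that acts in stress signalling to JNK and p38, rose from 8.59 and 8.50 to 10.61 and 10.67 (2.09 ± 0.13, limma adjusted p = 6.18e-09). Rgl1, an exchange factor for Ral GTPases, rose from 8.24 and 7.81 to 10.07 and 10.02 (2.02 ± 0.15, limma adjusted p = 4.65e-08). Appl2, an adaptor of early endosomes, rose from 8.25 and 8.05 to 10.12 and 10.09 (1.96 ± 0.11, limma adjusted p = 2.09e-09). In each the KO arrays nearly coincided, well above WT. Nucb2, a calcium-binding protein and the precursor of the peptide nesfatin, rose from 7.80 and 7.74 to 10.64 and 10.70 (2.90 ± 0.11, limma adjusted p = 1.58e-11). Cyp39a1, a P450 enzyme that hydroxylates an oxysterol, rose from 7.52 and 7.43 to 9.71 and 9.68 (2.22 ± 0.13, limma adjusted p = 1.92e-09). Of 3 metallothioneins tested, which bind zinc and respond to metals and steroids, 2 were higher and 0 lower, against 6.79% higher among all genes. Mt2 rose from 9.11 and 8.76 to 11.47 and 10.84 (2.22 ± 0.19, limma adjusted p = 3.38e-07) and Mt1 from 8.11 and 8.43 to 9.27 and 8.94 (0.84 ± 0.13, limma adjusted p = 2.34e-04). The KO arrays of Mt2 lay farther apart than those of the other genes here. Among solute carriers, which move small molecules through membranes, 20 of 255 were higher and 18 lower (14.9% called, against 12.3% of all genes). Leaving out 1 array gave 13, 13, 13 and 11 higher genes and 9, 10, 8 and 10 lower ones, in the order WT arrays 1 and 2, then KO arrays 1 and 2. Slc11a2, an importer of iron, rose from 9.35 and 9.22 to 10.56 and 10.50 (1.25 ± 0.11, limma adjusted p = 5.76e-07), and Slc46a3, a lysosomal transporter, from 8.60 and 8.58 to 9.99 and 9.98 (1.39 ± 0.13, limma adjusted p = 9.21e-07). Rgl1, Appl2, Cyp39a1, Mt1, Mt2 and Slc11a2 were not called with all 20 arrays in the fit (limma adjusted p from 0.0645 to 1). The plot of genes by array shows these groups beside those that fell.

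**Figure D3:**
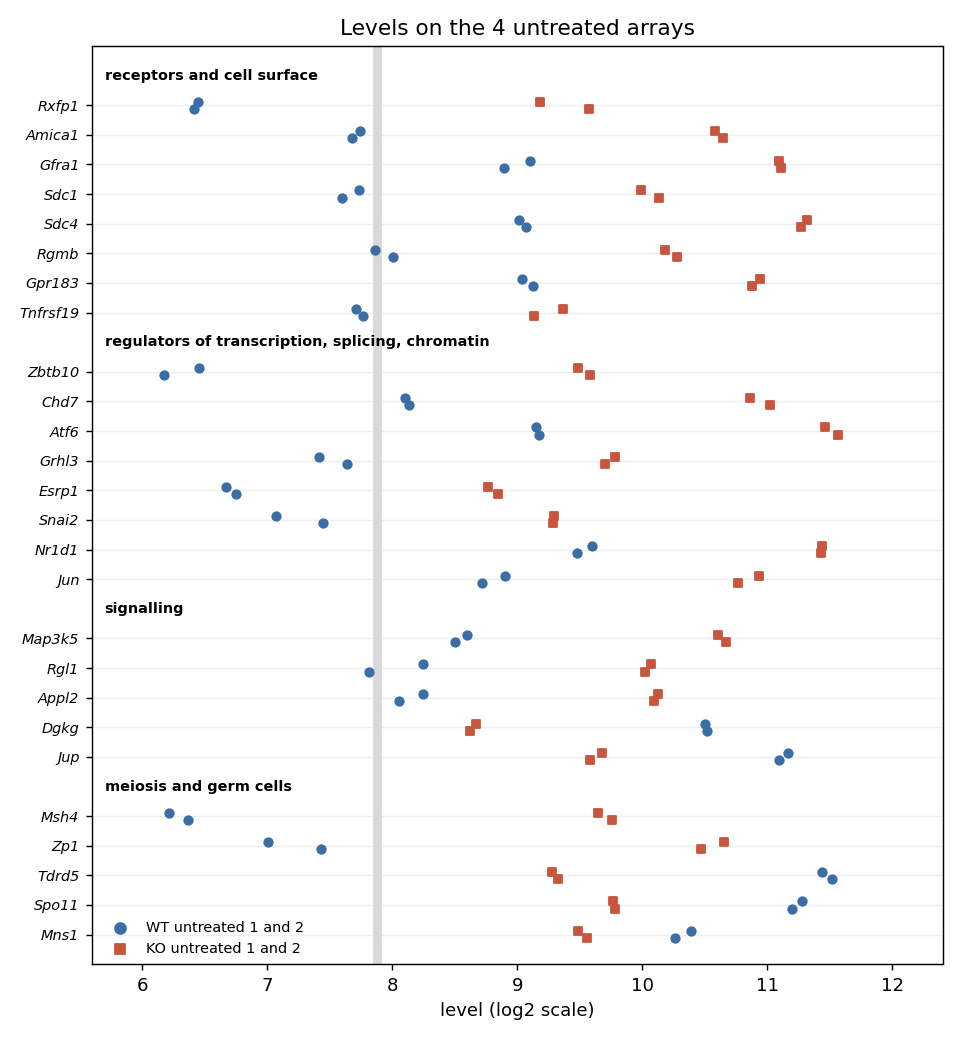
Levels (x axis, log2 scale) of 26 genes in 4 groups on the 2 WT (circles) and 2 KO (squares) untreated arrays, each point 1 array, with a grey band at the 40th percentile of the arrays (7.85 to 7.91). In the upper groups KO lies to the right of WT, and for Dgkg, Jup, Tdrd5, Spo11 and Mns1 it lies to the left.

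Large falls outside the genes of neutrophils started from differing WT levels. Lonrf1, a RING finger protein, was already below the median of all genes in WT, with 8.40 and 8.15, and read 6.70 and 6.46 in KO (-1.70 ± 0.14, limma adjusted p = 1.85e-07). Dgkg, a kinase that removes the second messenger diacylglycerol, read 10.50 and 10.52 in WT and 8.67 and 8.62 in KO (-1.86 ± 0.11, limma adjusted p = 2.5e-09). Of the 21 protein kinase C and diacylglycerol kinase genes, 4 fell and 1 rose, against 5.49% lower and 6.79% higher among all genes (without WT array 1, WT array 2, KO array 1 and KO array 2 in turn the falls numbered 3, 3, 2 and 3). Jup, the junction protein plakoglobin, read 11.16 and 11.10 in WT and 9.68 and 9.58 in KO (-1.50 ± 0.12, limma adjusted p = 1.33e-07). Ldhb, the lactate dehydrogenase subunit of oxidative tissues, read 12.34 and 12.28 in WT and 10.88 and 10.88 in KO (-1.43 ± 0.13, limma adjusted p = 1.01e-06). Dgkg, Jup and Ldhb fell from the upper range of the array and remained above its dim limit. Papss2, which makes the sulphate donor of sulphation reactions, fell from 10.57 and 10.36 to 8.999 and 9.05 (-1.44 ± 0.13, limma adjusted p = 7.62e-07). Sqrdl, the mitochondrial enzyme that oxidises sulphide, fell from 10.004 and 9.46 to 8.12 and 8.17 (-1.59 ± 0.15, limma adjusted p = 1.67e-06). Dapk1, a kinase linked to cell death, fell from 10.87 and 10.83 to 9.80 and 9.81 (-1.04 ± 0.12, limma adjusted p = 1.47e-05). Rasgrp4, an exchange factor for Ras, fell from 10.15 and 10.08 to 8.79 and 8.96 (-1.24 ± 0.17, limma adjusted p = 9.59e-05). Dtx3, a ubiquitin ligase of the Deltex family, fell from 10.41 and 10.28 to 9.24 and 9.17 (-1.14 ± 0.11, limma adjusted p = 2.56e-06), whereas its relative Dtx1, a target of Notch, rose from 9.70 and 9.75 to 10.35 and 10.34 (0.62 ± 0.11, limma adjusted p = 9.16e-04). Among genes switched off were the peptide transporter Slc15a1 (-1.08 ± 0.13, limma adjusted p = 1.59e-05), Fn3k, which removes sugars bound to proteins (-1.23 ± 0.11, limma adjusted p = 7.76e-07), and Insl5, a peptide hormone related to insulin (-1.35 ± 0.15, limma adjusted p = 5.37e-06). Of the genes of this paragraph, only Dtx3, Fn3k and Insl5 were still called with all 20 arrays in the fit. The others had limma adjusted p-values from 0.148 to 1 there.

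Of 20 germ cell genes 2 rose and 3 fell, against 6.79% and 5.49% of all genes. The list was chosen with earlier results of these data known, so these shares are a description and not a test. Msh4, which acts in meiotic crossing over, rose from 6.22 and 6.37 to 9.65 and 9.75 (3.41 ± 0.15, limma adjusted p = 6.4e-11), and Zp1, a protein of the egg coat, from 7.01 and 7.43 to 10.65 and 10.46 (3.34 ± 0.14, limma adjusted p = 5.64e-11). Both were dim in WT and clearly above the limit in KO. Tdrd5, a tudor protein of the piRNA pathway in spermatogenesis, fell from 11.44 and 11.52 to 9.28 and 9.33 (-2.17 ± 0.11, limma adjusted p = 3.26e-10). Spo11, which makes the DNA breaks of meiosis, fell from 11.28 and 11.19 to 9.77 and 9.78 (-1.47 ± 0.12, limma adjusted p = 1.18e-07). Mns1, a structural protein of meiotic nuclei and sperm tails, fell from 10.39 and 10.26 to 9.48 and 9.55 (-0.81 ± 0.12, limma adjusted p = 1.8e-04). These 5 were all the calls among the 20 germ cell genes tested, whose median difference was -0.11, and the 3 that fell were among the brighter genes of WT thymocytes. Tdrd5, Spo11 and Mns1 were not called with all 20 arrays (limma adjusted p = 0.165, 0.437 and 0.641).

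Most lists of cell type markers held a larger share of genes higher in KO than the 6.79% of all genes, and granulocyte genes were lower. In bulk samples fewer cells of a type and less RNA per cell cannot be told apart. After each count, the counts without WT arrays 1 and 2 and without KO arrays 1 and 2, each left out in turn, follow in that order. Of the granulocyte genes, 11 of 14 tested fell (4, 4, 11 and 11), and their mean level was 9.08 and 8.91 on the WT arrays and 6.96 and 6.90 on the KO arrays. Without a WT array most of them were too dim to test. Those genes had passed the filter through the WT untreated arrays, which fixed their direction, so their fall is a description and not a test. The list was also chosen with earlier results of these data known. Ngp, a neutrophil granule protein, read 10.87 and 10.55 in WT and 6.28 and 6.21 in KO (-4.47 ± 0.18, limma adjusted p = 3.51e-11). The early granule genes Ctsg and Prtn3 were too dim to test, and Mpo (-0.08) was not called. Of the macrophage genes, 7 of 12 rose (5, 3, 2 and 1), with a mean level of 9.10 and 8.97 in WT and 9.54 and 9.54 in KO. Of the dendritic cell genes, 10 of 17 rose (9, 2, 1 and 5), with a mean level of 9.59 and 9.49 in WT and 9.95 and 9.89 in KO. The lysosomal protease Ctss led the macrophage genes, from 9.43 and 9.30 to 10.54 and 10.56 (1.18 ± 0.11, limma adjusted p = 1.56e-06). Of the 12 genes of MHC class II presentation, which B cells, dendritic cells and macrophages share, 10 rose (9, 3, 4 and 8), with a median difference of 0.59 against -0.02 for all genes. The dendritic cell list also holds genes of class II presentation, so these counts may share members and are not separate results. H2-Oa, a chain of the class II regulator DO, rose by 0.85 ± 0.16, and Ciita, the master activator of class II genes, by 0.58 ± 0.11 (limma adjusted p = 0.00124 and 0.00124), while H2-Ob (-0.03) and H2-DMa (0.14) did not pass. Ctss, H2-Oa and Ciita were not called with all 20 arrays (limma adjusted p = 0.824, 0.528 and 1).

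Markers of lymphocytes other than double-positive thymocytes were among those that rose. Among 14 B-cell genes 8 rose (8, 5, 6 and 7 without WT array 1, WT array 2, KO array 1 and KO array 2 in turn), with a mean level of 9.18 and 9.08 in WT and 9.62 and 9.57 in KO. The low-affinity IgE receptor Fcer2a rose by 1.03 ± 0.14 and the kinase Blk, which gamma delta T cells use as well, by 0.89 ± 0.11 (limma adjusted p = 4.70e-05 and 3.85e-05). Among 11 NK and cytotoxic genes 7 rose (6, 5, 4 and 5), with a mean level of 9.15 and 9.06 in WT and 9.71 and 9.72 in KO. Prf1, the pore-forming protein of killer cells, rose from 8.74 and 8.68 to 10.03 and 10.15 (1.38 ± 0.13, limma adjusted p = 1.37e-06). The defining NK receptors Klrb1c, Ncr1, Klra1, Klrk1 and Klrc1 were too dim to test. Of 8 genes that mark gamma delta T cells 6 rose (6, 6, 4 and 4), and their mean level went from 8.37 and 8.38 to 9.95 and 9.92. The scavenger receptor Cd163l1 rose from 7.74 and 8.18 to 11.99 and 12.01 (4.04 ± 0.18, limma adjusted p = 9.16e-11), and Maf from 8.53 and 8.34 to 11.84 and 11.75 (3.36 ± 0.12, limma adjusted p = 8.73e-12). Sox13 (-0.09) and Sox4 (-0.25), which belong to that list, were not called, and Il17a, Il1r1 and Etv5 were too dim to test. At least 1 member of that list that rose was dim outside untreated KO cells. Its mean was 8.05 in untreated KO cells and 6.52 to 6.80 in the other thymocyte groups. It passed the filter through the untreated KO arrays, which fixed its direction. Of the innate-like T cell genes, 6 of 20 rose (5, 4, 3 and 4), led by Il18r1 (4.25 ± 0.11, limma adjusted p = 3.41e-13) and the integrin chain Itgae, whose 32 probe sets all rose in sign (1.04 ± 0.12, limma adjusted p = 1.30e-05). Zbtb16, the factor that defines NKT cells, did not pass (0.19). Of the regulatory T cell genes, 8 of 13 rose (5, 4, 5 and 6), with a mean level of 9.49 and 9.39 in WT and 9.94 and 9.91 in KO. Ctla4, an inhibitory receptor, rose from 8.23 and 7.84 to 9.18 and 9.15 (1.13 ± 0.14, limma adjusted p = 1.89e-05), and Nrp1, a semaphorin receptor of thymic regulatory cells, from 9.78 and 9.72 to 10.87 and 10.80 (1.09 ± 0.13, limma adjusted p = 1.80e-05). Foxp3, which defines these cells, rose by 0.60 ± 0.13 (limma adjusted p = 0.00387), but not without WT untreated 2 (limma adjusted p = 0.0741). Their genes Folr4 (0.23), Gpr83 (0.03), Ikzf4 (0.19), Tnfrsf18 (-0.04) and Tnfrsf4 (0.03) did not pass. Of the genes of this paragraph, Cd163l1, Maf, Il18r1 and Prf1 were still called with all 20 arrays, and Fcer2a, Blk, Itgae, Ctla4, Nrp1 and Foxp3 were not.

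**Figure D4:**
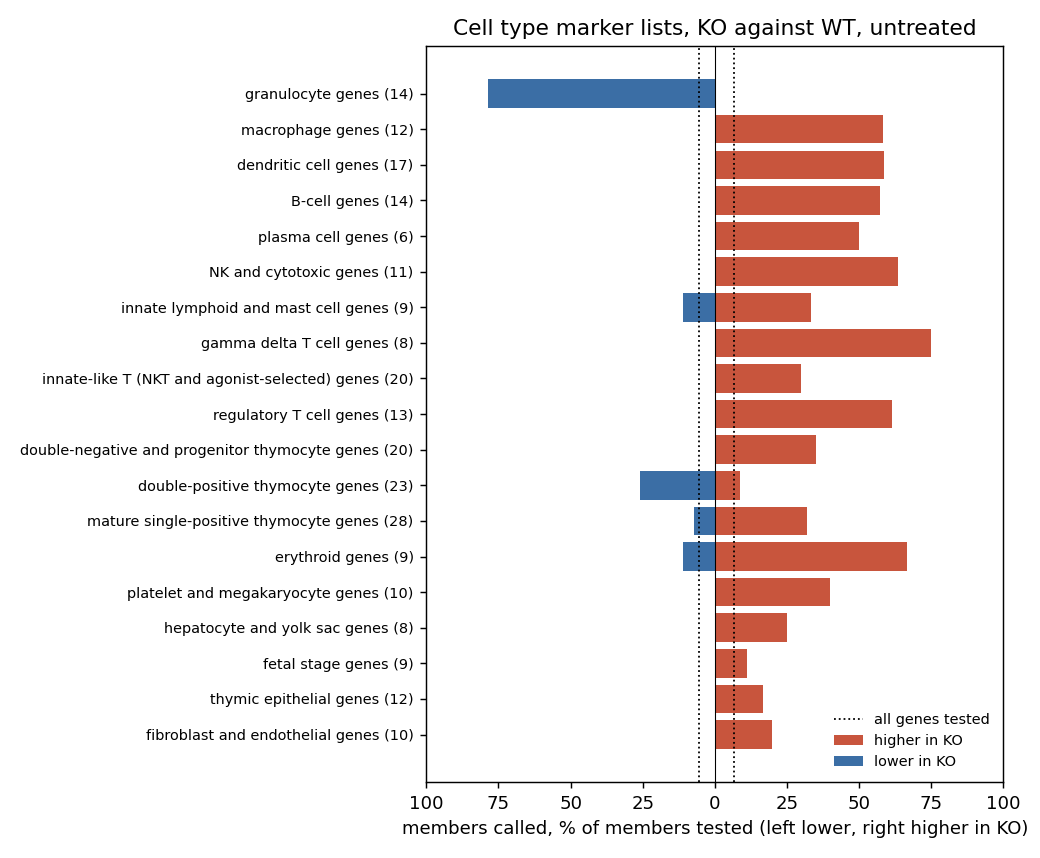
Share of tested members called (x axis, % of members tested) in each list of cell type markers, to the right for genes higher and to the left for genes lower in KO, with the number tested after each name. Dotted lines mark all genes tested, 6.79% higher and 5.49% lower. The granulocyte bar (11 of 14 lower) and the double-positive bar (6 of 23 lower) reach farther to the left than to the right. Most granulocyte genes called had passed the filter through the WT untreated arrays, which fixed their direction.

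Transcripts of tissues that are not thymus moved with genotype as well. Of the erythroid genes, 6 of 9 tested rose (5, 5, 4 and 3 without WT array 1, WT array 2, KO array 1 and KO array 2 in turn), 1 was lower, Car2 (-0.62, lost without WT untreated 1 or KO untreated 2), and their mean level went from 8.05 and 7.98 in WT to 9.39 and 9.12 in KO. Hbb-b1, an adult globin with 1 probe set here, read 8.67 and 8.31 in WT and 12.76 and 12.48 in KO (4.13 ± 0.26, limma adjusted p = 6.36e-09). The embryonic globin Hbb-y read 6.58 and 6.40 in WT and 9.80 and 9.17 in KO (3.00 ± 0.17), and the plasma protein Alb 6.69 and 6.69 in WT and 9.11 and 8.32 in KO (2.03 ± 0.19, limma adjusted p = 1.31e-09 and 7.81e-07). KO untreated 1 was the higher of the KO arrays for all 3, and both KO arrays lay above both WT arrays. The erythroid factors Gata1 and Klf1 were too dim to test and the receptor Epor (-0.12) was not called. Of the platelet genes, 4 of 10 rose (3, 3, 2 and 2), among them the chemokines Ppbp (2.89 ± 0.13) and Pf4 (1.04 ± 0.11), while Itga2b (-0.08), Gp9 (0.03) and Vwf (-0.08) were not called. Of the hepatocyte and yolk sac genes, 2 of 8 rose (2, 2, 0 and 0), Alb and Afp (0.84 ± 0.13), with Apoa1 (0.32) and Apob (-0.02) not called and Ttr, Ahsg and 7 others too dim to test. Without either KO array Hbb-y, Ppbp, Alb and Afp were too dim to test. These genes passed the filter through the KO untreated arrays, which fixed their direction, so their part in the counts above is no test. On the Y chromosome Eif2s3y fell from 11.45 and 11.28 to 10.32 and 10.53 (-0.94 ± 0.13, limma adjusted p = 8.22e-05), Uty (-0.15) and Kdm5d (-0.44) did not pass, and Xist was too dim to test. Pf4 and Eif2s3y were not called with all 20 arrays (limma adjusted p = 0.103 and 0.673). The part of blood, liver or sex-linked transcripts in the results above was not tested.

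Genes of thymocyte stages moved in both directions. Of the double-positive genes, 6 of 23 fell and 2 rose (4, 5, 4 and 4 fell without WT array 1, WT array 2, KO array 1 and KO array 2 in turn), with a median of -0.07, against 5.49% lower and 6.79% higher among all genes. Beside Dgkg and Mns1, Dntt, which adds bases at the joints of receptor genes, fell from 12.61 and 12.55 to 11.92 and 11.88 (-0.68 ± 0.13, limma adjusted p = 0.00162). St6gal1, a sialyltransferase, rose from 10.89 and 10.75 to 11.96 and 11.93 (1.12 ± 0.12, limma adjusted p = 3.79e-06). Of the double-negative and progenitor genes, 7 of 20 rose (4, 3, 3 and 3), with a median of 0.21. Flt3, a receptor of progenitors and dendritic cells, rose by 0.60 ± 0.11, and Sfpi1, the array's symbol for the factor PU.1 of myeloid cells, from 8.88 and 8.63 to 9.57 and 9.42 (0.74 ± 0.14, limma adjusted p = 0.0014 and 0.00182). Mature single-positive cells were marked by 28 tested genes, of which 9 rose (5, 5, 5 and 5) and 2 fell (2, 1, 1 and 1). Foxo1, a factor that drives expression of homing receptors, rose from 10.83 and 10.61 to 11.95 and 11.85 (1.18 ± 0.13, limma adjusted p = 4.87e-06). Its target Klf2 rose from 10.41 and 10.42 to 11.35 and 11.12 (0.82 ± 0.12), and the egress receptor S1pr1 from 9.87 and 9.70 to 10.47 and 10.75 (0.83 ± 0.12, limma adjusted p = 1.11e-04 and 1.80e-04). The homing integrin chain Itgb7 rose from 9.51 and 9.50 to 10.68 and 10.58 (1.13 ± 0.12, limma adjusted p = 4.74e-06). Runx3, the factor of CD8 cells, rose by 0.92 ± 0.12 and Dusp10, a phosphatase of stress kinases, fell by 0.81 ± 0.11 (limma adjusted p = 4.98e-05 and 5.73e-05). The factors that define T cells, Tcf7 (-0.07) and Bcl11b (-0.11), did not pass, nor did Myc (0.26), the survival genes Bcl2 (-0.13), Bcl2l1 (0.25) and Mcl1 (-0.10), or the p53 targets Cdkn1a (0.43), Mdm2 (-0.21) and Bbc3 (0.14). Of the called genes of this paragraph, Foxo1 was still called with all 20 arrays.

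Genes tied to GFI1 by earlier work rose in part. A list of 29 genes that earlier work on blood cells names as GFI1 targets held 12 that rose (10, 7, 7 and 7 without WT array 1, WT array 2, KO array 1 and KO array 2 in turn), with a median of 0.31, while 17 were not called (6.79% of all genes were higher). Il6ra, a chain of the interleukin 6 receptor, rose from 9.26 and 9.31 to 10.69 and 10.55 (1.34 ± 0.13, limma adjusted p = 1.93e-06). Irf4, a factor of activated lymphocytes, rose from 8.45 and 8.31 to 9.27 and 9.26 (0.89 ± 0.14, limma adjusted p = 2.26e-04), and Id1, an inhibitor of E proteins, by 0.71 ± 0.13 (limma adjusted p = 0.00102). Id2, which stands on the same list, did not pass (0.10). A list of 19 GFI1 partners, corepressors and related factors held 4 that rose. Those 4 were Snai2, Snai3, Snai1 and Gfi1b, which carry a SNAG domain themselves, and no other member was called. Snai2 rose from 7.07 and 7.45 to 9.29 and 9.29 (2.03 ± 0.13, limma adjusted p = 1.06e-08). Snai3 was at 0.57 ± 0.11 (limma adjusted p = 0.002, 0.0538 without WT untreated 2), and Snai1 (0.45) and Gfi1b (0.42) lost the call without any 1 of the 4 untreated arrays. Il6ra, Irf4, Id1 and Snai3 were not called with all 20 arrays.

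Families of receptors and signalling genes were counted in the same way, and in this paragraph the 4 counts in parentheses are again those without WT array 1, WT array 2, KO array 1 and KO array 2 in turn. Among all genes tested 6.79% were higher and 5.49% lower. Of 25 genes of the TGF-beta family, which restrains T cells and steers their differentiation, 9 rose (7, 6, 6 and 7), with a median of 0.20. The receptor chains led. Acvr1 rose from 7.27 and 7.64 to 8.68 and 8.65 (1.21 ± 0.15, limma adjusted p = 3.32e-05), Bmpr2 from 8.70 and 8.41 to 9.70 and 9.82 (1.20 ± 0.17, limma adjusted p = 9.05e-05) and Tgfbr3, a coreceptor, from 10.03 and 9.95 to 11.08 and 11.05 (1.07 ± 0.12, limma adjusted p = 5.63e-06). Smad3, which carries the signal to the nucleus, rose from 10.53 and 10.44 to 11.28 and 11.29 (0.80 ± 0.13, limma adjusted p = 3.42e-04). Of 26 AP-1 and immediate early genes, 10 rose (7, 3, 3 and 5). Jun, a subunit of AP-1, read 8.90 and 8.72 in WT and 10.93 and 10.76 in KO (2.04 ± 0.16, limma adjusted p = 1.33e-07), and its partner Fosl2 rose from 8.37 and 8.33 to 9.55 and 9.34 (1.10 ± 0.13, limma adjusted p = 1.62e-05). Egr1, a gene of the same list, did not pass (0.05). Of 31 interferon response genes, 11 rose (8, 6, 6 and 7) and 1, Oasl2, was lower (-0.88), with a median of 0.33. Of 28 interleukin receptors 7 rose (5, 5, 3 and 3), and Il17re fell from 9.60 and 9.49 to 8.76 and 8.93 (-0.70 ± 0.11, limma adjusted p = 4.55e-04). Of 16 TNF receptors 5 rose (4, 3, 3 and 5), the orphan receptor Tnfrsf19 most, from 7.71 and 7.77 to 9.37 and 9.14 (1.51 ± 0.12, limma adjusted p = 9.56e-08). With all 20 arrays Il17re was still called, and Acvr1, Bmpr2, Tgfbr3, Smad3, Jun, Fosl2 and Tnfrsf19 were not.

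Several families of housekeeping and cell division genes had a smaller share of calls, higher and lower together, than the 12.3% of all genes. Of 57 ribosomal protein genes, limma called 0 (3 at an unadjusted p under 0.05), of 43 proteasome subunits 0 (1) and of 32 kinesins 0 (8). With only the 4 untreated arrays in the fit, 6 ribosomal protein genes were higher and 1 lower. Of 85 oxidative phosphorylation genes 1 rose and 2 fell. Genes of dividing cells were called lower about as often as all genes tested, and most had a value below 0. Of 37 mitosis genes 3 had a difference above 0 and 2 were called lower (5.41%). Of 40 DNA replication genes 6 were above 0 and 3 called lower (7.5%), against 5.49% lower among all genes. At an unadjusted limma p under 0.05, 16 mitosis and 14 replication genes were lower and 0 higher. Among all 12747 genes 1558 were lower and 1429 higher at that limit. Both lists had a median of -0.21 against -0.02 for all genes. The mitosis calls were lost without any 1 of the 4 untreated arrays and numbered 4, 8 and 6 without WT irradiated 1, WT irradiated 2 and KO irradiated 2. The replication calls numbered 1 without any 1 of the untreated arrays and 5 without WT irradiated 2.

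The genes around Gfi1 were read because a targeted locus can carry changes at its neighbours. Of the 15 nearest RefSeq genes on each side, 28 were on the array and 21 were tested. Of these 21, 3 were called (14.3%, against 12.2% on other chromosomes): Tgfbr3 rose, and Cdc7, a kinase of replication origins, and Ccdc18 were lower. The fall of Cdc7 (-0.54 ± 0.13, limma adjusted p = 0.00852) was lost without WT untreated 1, KO untreated 1 or KO untreated 2, and that of Ccdc18 (-0.60 ± 0.12, limma adjusted p = 0.00295) without WT untreated 1 or KO untreated 1. The adjacent gene Rpap2 did not pass (-0.23), and Evi5, on the other side, was too dim to test. Tgfbr3, Cdc7 and Ccdc18 were not called with all 20 arrays. Over the whole chromosome of Gfi1, 57 of 797 genes were higher and 47 lower, which is 13%.

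The KO effect was set against that in irradiated thymocytes by an interaction term in the same fit. For 240 of 12747 genes (1.88%) it differed at a limma adjusted p under 0.05, with the untreated effect the more positive in 100 (0.784%) and the more negative in 140 (1.10%). The count fell to 61 without KO untreated 1 and to 88, 89 and 92 without WT untreated 1, WT untreated 2 and KO untreated 2. The untreated and irradiated KO arrays also differ at Gfi1 itself. Probe sets 2 and 3 were low in the former and high in the latter, and probe sets 5 to 8 the other way round. Probe set 5 read 11.45 and 11.43 in untreated KO and 7.82, 8.05 and 7.79 in irradiated KO. Irradiation, the set of arrays and the KO allele thus cannot be told apart. Jun had a KO effect of 2.04 in untreated and 0.43 in irradiated cells (difference 1.61, limma adjusted p = 4.06e-04), and its mean level was 8.81 in WT and 10.85 in KO untreated, and 9.996 in WT and 10.43 in KO irradiated cells. Irradiated WT cells thus stood above untreated WT cells. Tnfrsf19 (1.51 and 0.55, difference 0.96, limma adjusted p = 0.00238) and Prf1 (1.38 and 0.37, difference 1.01, limma adjusted p = 0.00406) had smaller effects after irradiation as well. The falls of Dtx3 (-1.14 and -0.05, difference -1.09, limma adjusted p = 6.7e-04), Spo11 (-1.47 and -0.56, difference -0.90, limma adjusted p = 0.00346) and Camk1g, a calcium-dependent kinase (-1.40 and -0.03, difference -1.37, limma adjusted p = 4.06e-04), were smaller there too. Slc15a2, a peptide transporter, went opposite ways. It fell in untreated KO cells, from 10.92 and 10.89 to 10.03 and 10.13 (-0.82 ± 0.14), and rose by 4.54 in irradiated ones, where WT stood at a mean of 5.89 and KO at 10.44 (difference -5.36, limma adjusted p = 2.13e-11). The irradiated WT arrays were thus the ones far from the other 3 groups. Of 14 granulocyte genes 12 were called for this difference, and of 9 erythroid genes 5. Some members of both lists passed the filter only through the untreated arrays of 1 genotype, which fixed the direction of their difference. Il18r1, Maf, Cd163l1, Chd7 and Tdrd5 were not called for a difference. With all 20 arrays 6 genes passed, and Jun, Tnfrsf19, Prf1, Dtx3, Spo11, Camk1g and Slc15a2 were not among them.

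**Figure D5:**
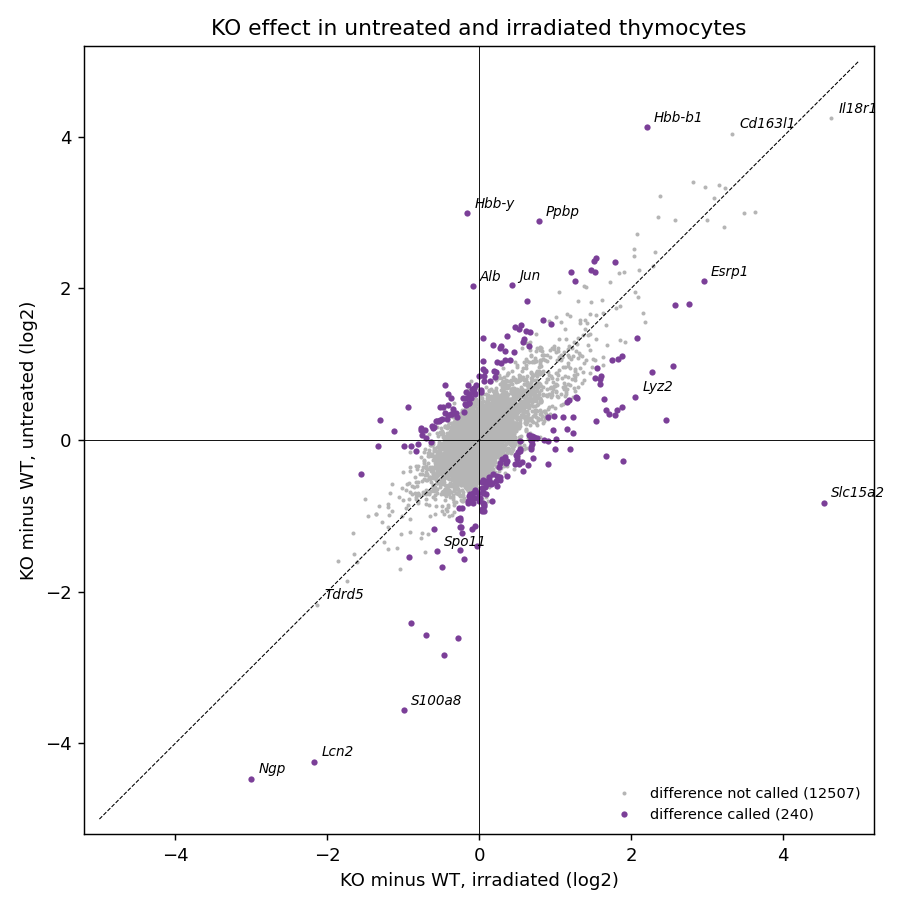
KO effect in untreated thymocytes (y axis, log2) against that in irradiated thymocytes (x axis, log2) for 12747 genes, each point 1 gene, with 240 genes whose effects differed in purple and a dashed line at equal effects. Il18r1 and Cd163l1 lie near the line at the upper right, Hbb-y, Alb and Jun lie above it, and Slc15a2 lies at -0.82 untreated and 4.54 irradiated.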

How the data were processed

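The 20 arrays read biotin-labelled cRNA amplified with a NuGEN kit, per the labels' protocols. The table the authors deposited holds 1 value per probe set and array on a log scale, taken here as log2 from its range of 3.37 to 15.01. The sources used here give neither summary nor normalization, and read depth does not apply: the number of arrays limits the precision. Probe sets with 1 symbol were joined to genes as the median of values centred on the probe set, with symbols updated through RefSeq GRCm38.p6 (19607 genes). Tested genes exceeded the 40th percentile on 2 or more of the 10 thymocyte arrays. Group means were fitted on these arrays with limma 3.58.1 in R 4.3.3 (lmFit and eBayes, 6 residual degrees of freedom), with Benjamini-Hochberg adjustment over all genes tested and a threshold of 0.05. The code was tested on simulated data. Figures were drawn with matplotlib 3.10.9.

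Members and gene lists were chosen with earlier results of these data known. Genes named were Gfi1, at most 40 of the largest rises and as many of the largest falls past the threshold, where the groups do not overlap, leaders of each list, genes switched on or off, genes whose KO effect differed after irradiation, and neighbours of Gfi1. A few others are named as members of a list that did not pass, or after their values were seen (Lonrf1, Oasl2, Car2). Alternatives changed the normalization, the filter, the summary of probe sets, the arrays in the fit, the spread model and the replicate block, and left out each thymocyte array in turn. Tumours were otherwise not analysed here.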

Additional observations from a re-analysis of the deposited data

Results flagged for a closer look

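The effect of Gfi1 loss in untreated thymocytes was set against its effect in irradiated thymocytes by a test of the difference itself (limma, adjusted over all genes tested). The genes below are those named in the text whose 2 effects differed by that test at an adjusted p under 0.05. Each value is the log2 effect in untreated cells minus that in irradiated cells, so that a positive value means a higher KO effect without irradiation. Irradiation, the set of arrays and the allele of the KO mice cannot be told apart in this difference.

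Genes of red blood cells, platelets and liver had positive values. The embryonic globin Hbb-y stood at 3.15 (adjusted p = 3.7e-07), the adult globin Hbb-b1 at 1.92 (adjusted p = 0.00596), the platelet chemokine Ppbp at 2.11 (adjusted p = 1.28e-06), albumin Alb at 2.12 (adjusted p = 1.21e-04) and the fetal serum protein Afp at 0.84 (adjusted p = 0.0135). Once either KO untreated array was left out, Hbb-y, Ppbp, Alb and Afp could not be tested for lack of signal. These genes passed the filter through the KO untreated arrays, which fixed the sign of their values. Hbb-b1 missed the threshold with an intensity trend and robust estimation (adjusted p = 0.12).

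Of 14 granulocyte genes tested, 12 had effects that differed, against 1.88% of all genes. Of the 12, 11 had a more negative and 1 a more positive effect in untreated cells. Several passed the filter through the untreated WT arrays alone, with irradiated WT means from 6.62 to 7.78. For these the more negative untreated effect was fixed in advance. The secretory proteins Lcn2 and Ngp had values of -2.07 (adjusted p = 8.37e-05) and -1.46 (adjusted p = 0.00266), whereas the peroxidase gene Mpo had 0.81 (adjusted p = 0.0386), a call lost without any of the 4 untreated arrays in turn.

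Among regulators of transcription and signalling, the immediate early gene Jun had a value of 1.61 (adjusted p = 4.06e-04), the antagonist of E proteins Id2 one of -1.13 (adjusted p = 0.00234), the developmental regulator Eya1 one of -0.97 (adjusted p = 0.00214) and the kinase gene Camk1g one of -1.37 (adjusted p = 4.06e-04). Dtx3 stood at -1.09 (adjusted p = 6.73e-04), the meiotic gene Spo11 at -0.90 (adjusted p = 0.00346), the receptor gene Tnfrsf19 at 0.96 (adjusted p = 0.00238) and the perforin gene Prf1 at 1.01 (adjusted p = 0.00406). These 8 calls held without each of the 10 thymocyte arrays in turn.

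The peptide transporter gene Slc15a2 had the most negative value, -5.36 (adjusted p = 2.13e-11). For Gfi1 itself the gene value gave 1.57 (adjusted p = 2.61e-04), but -0.18 (adjusted p = 0.668) when the mean over its probe sets replaced their median.

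Calls that rested on single untreated arrays were the Y-linked gene Eif2s3y, -1.0 (adjusted p = 0.00391), the splicing regulator genes Esrp1, -0.86 (adjusted p = 0.00391), and Esrp2, -0.91 (adjusted p = 0.0155), and the receptor gene Gfra1, 0.84 (adjusted p = 0.00694). Eif2s3y, Esrp1 and Gfra1 each had an adjusted p of 0.0508 without KO untreated 1, and Esrp2 one of 0.112. The same held for the transcription factor gene Runx3, 0.84 (adjusted p = 0.00831), with an adjusted p of 0.0975 without KO untreated 1. The syndecan gene Sdc1, 0.85 (adjusted p = 0.0103), had an adjusted p of 0.0958 without KO untreated 2. The cell cycle inhibitor gene Cdkn1a, 0.91 (adjusted p = 0.0125), and the transcription factor gene Grhl3, 0.69 (adjusted p = 0.0166), had adjusted p-values of 0.136 and 0.163 without KO untreated 1. Without WT untreated 1 the calls of Afp, Esrp2, Cdkn1a and Grhl3 were lost, without WT untreated 2 those of Gfra1, Runx3 and Sdc1, and without KO untreated 2 those of Esrp2 and Grhl3. Grhl3 and Afp also lost it under quantile normalization (adjusted p = 0.474 and 0.058).

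A last group lost the call without each of the 4 untreated arrays in turn: the syndecan gene Sdc4, 0.77 (adjusted p = 0.0124), the phosphatase gene Dusp10, -0.66 (adjusted p = 0.0177), the egress regulator Klf2, -0.71 (adjusted p = 0.0195), and the stress sensor Atf6, 0.57 (adjusted p = 0.0491). The metallothionein gene Mt2, 1.01 (adjusted p = 0.0435), lost it without 3 of them, among them KO untreated 1 (adjusted p = 0.344). The calls of 2 genes described under other observations were lost in the same way. The chemokine gene Cxcl9 had a value of 0.72 (adjusted p = 0.046) and the phosphodiesterase gene Pde1b one of -0.68 (adjusted p = 0.0205). Mpo, Mt2, Atf6, Dusp10, Klf2 and Cxcl9 also lost it without 1 or more of the irradiated arrays. With all 20 arrays in the fit, Hbb-y and Alb kept the call, and the other 31 of these 33 genes did not.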

How the results depend on the processing

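With all 20 arrays in the fit, so that the tumours entered the estimate of spread, the genes called fell from 1566 to 115 for the untreated KO effect, from 1903 to 148 for the irradiated KO effect and from 240 to 6 for their difference, and the Gfi1 probe sets called fell from 6 to 3. Of the 106 named genes called, 68 lost the call there. With only the 4 untreated arrays in the fit, 3203 genes were called, 1536 higher and 1667 lower, against 866 and 700. Leaving out each thymocyte array in turn gave 716 to 1833 genes for the untreated effect (859 and 845 for WT untreated 1 and 2, 716 and 780 for KO untreated 1 and 2), 1432 to 1972 for the irradiated effect and 61 to 299 for the difference, with 88, 89, 61 and 92 for the same 4 arrays. Of the named genes called, 7 (Foxp3, Snai3, Snai1, Gfi1b, Cdc7, Ccdc18 and Car2) lost the call without an untreated array, 4 (Hbb-y, Ppbp, Alb and Afp) were then too dim to test in 1 or more fits, and 0 lost it without an irradiated array. Quantile normalization, no filter on dim genes, the 60th percentile as filter, the mean over probe sets, and a spread with intensity trend and robust estimation gave 1228 to 1792 genes, and under each no named gene that was tested lost the untreated call. Of the 33 named genes whose untreated and irradiated effects differed, quantile normalization lost 6 calls (Afp, Grhl3, Klf2, Mpo, Mt2 and Cxcl9), no filter 4 (Atf6, Mpo, Mt2 and Cxcl9) and the trended robust spread 2 (Hbb-b1 and Mt2), and the mean over probe sets 1 (Klf2). The mean over probe sets turned the gene value of Gfi1 from 0.26 to -0.90 (limma adjusted p = 2.3e-05) and its difference of effects from 1.57 to -0.18; its probe sets disagree, as described. The cause of the other shifts was not tested.

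The replicate number as a block gave 1358 genes, of which 1337 were among the 1566, 1668 for the irradiated effect and 196 for the difference, and no named gene lost the untreated call, while 1 named call for a difference of effects was lost (Atf6, limma adjusted p = 0.0491 without and 0.0879 with the block). The numbers did not pair the arrays: deviations from the group means of same-numbered untreated arrays correlated at r = 0.124 over genes, and those of the irradiated arrays at -0.342 to 0.220.

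With 2 arrays a group, the median SE of a log2 difference was 0.122, and 0.158 for a difference of effects. Background signal of the probe sets is not known here.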

Other observations

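Chemokine genes, which encode small secreted proteins that guide cell migration, were not described above as a family. Of 22 tested in the untreated comparison, 9 were higher in KO and 1 was lower (limma adjusted p under 0.05), with a median difference of 0.33, against 6.79% higher and 5.49% lower among all genes. Leaving out WT untreated 1 or 2 gave 8 or 4 higher genes, and leaving out KO untreated 1 or 2 gave 3 or 5. Cxcl9, an interferon-induced chemokine gene, read 7.96 and 7.81 in WT and 8.91 and 8.88 in KO, a difference of 1.01 ± 0.14 (SE, limma adjusted p = 6.44e-05). Ccl27a, the member that was lower, read 10.49 and 10.31 in WT and 9.60 and 9.56 in KO, a difference of -0.82 ± 0.12 (limma adjusted p = 1.41e-04).

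Of 8 SLAM family genes tested, whose receptors act between blood cells, 3 were higher in KO and 0 lower (1 at an unadjusted p under 0.05). Among all genes tested 6.79% were higher and 5.49% lower. Slamf7 read 8.87 and 8.73 in WT and 9.77 and 9.66 in KO, a difference of 0.91 ± 0.11 (limma adjusted p = 2.42e-05). Granzyme genes, which encode proteases of cytotoxic granules, belong to the NK and cytotoxic list of the report. Gzma read 9.73 and 9.60 in WT and 10.53 and 10.45 in KO, a difference of 0.83 ± 0.12 (limma adjusted p = 1.08e-04).

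Of 18 phosphodiesterase genes tested, whose products break down cyclic nucleotides, 2 were higher and 4 lower, against 6.79% and 5.49% of all genes. Leaving out WT untreated 1 or 2 left 2 or 3 lower, and leaving out KO untreated 1 or 2 left 2 each. Pde1b fell from 9.28 and 9.24 in WT to 8.46 and 8.51 in KO, by 0.78 ± 0.11 (limma adjusted p = 1.34e-04). Pde6a read 7.76 and 8.12 in WT and 8.73 and 8.80 in KO, a difference of 0.82 ± 0.15 (limma adjusted p = 9.83e-04).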
